A study of Homo sapiens with 32 samples.

Results

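HNF4α binding was mapped by chromatin immunoprecipitation and sequencing (ChIP-seq) in 3 human pancreatic ductal adenocarcinoma lines, and the binding of endogenous HNF4α in AsPC1 cells (ASPC1 in the labels) is described here beside that of induced HNF4α in Panc10.05 and BxPC3. Overlapping peaks (1 bp or more) of 10 peak lists, 1 per library, were merged into 76518 regions, and the 13643 regions with a peak in both AsPC1 sgNC lists, called sgNC regions here, are the subject. The labels do not spell out sgNC; it is the AsPC1 genotype that names neither HNF4A promoter, beside sgP1 and sgP2, in which CRISPR interference (CRISPRi) was used to repress the P1 or P2 isoforms. The other 8 lists come from Panc10.05 and BxPC3 cells in which doxycycline induced the P1 isoform α2 (P1-α2) or the P2 isoform α8 (P2-α8), with 2 libraries for each line and isoform. Doxycycline was at 500 ng/mL in BxPC3 with either isoform, but in Panc10.05 at 25 ng/mL in the P1-α2 cells and 12.5 ng/mL in the P2-α8 cells, where isoform and dose thus differ together. No doxycycline is given in the labels of the AsPC1 samples, and the series holds no sample of Panc10.05 or BxPC3 cells without an induced isoform. All 10 lists used 1 antibody against every HNF4α isoform (pan-HNF4α). Any endogenous HNF4α of Panc10.05 or BxPC3 would thus be counted with the induced isoform. Whether replicates came from separate cultures is not stated, so p-values measure only the spread between these libraries, which may be technical. Of the 32 samples of the series, 18 have a peak list and 14 are inputs. Peak lists hold no expression values, so the labelled cell types could not be checked against marker genes.

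HNF4α is a nuclear receptor that binds DNA as a homodimer, mainly at direct repeats of a short half-site, and it maintains the identity of hepatocytes and of intestinal, pancreatic and gastric epithelium. Its gene has 2 promoters. P1 transcripts encode an N-terminal activation domain that P2 transcripts lack, while both kinds share the DNA-binding domain. Well known targets are genes of lipoproteins, of bile acid and glucose metabolism, and of the brush border.

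The lists differ in length and in the weakest peak they admit. The sgNC lists held 24295 and 15118 peaks with −log10 q values from 2.00 and 2.01, and the induced lists held 12681 to 41808 peaks with −log10 q values from 8.00 to 8.04. Read depth is not in the files and is unknown, so a region without a peak is one not called, and no interval can be given. Strength is given as a percentile by the authors' fold enrichment within the list itself, 100 being the strongest peak, and percentiles of lists of different length are not a measure of change. Each line also has a library name series of its own, so line and sequencing series cannot be told apart. Endogenous HNF4α was mapped in AsPC1 alone and induced HNF4α in Panc10.05 and BxPC3 alone. Endogenous and induced binding therefore cannot be told apart from cell line.

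Short words of the HNF4 site were counted in promoter sequences at the 2 ends of the comparison. RefSeq promoter windows (GRCh38.p14, 250 bases before to 50 after a start) exist for 15843 of 20037 protein-coding genes, 22199 windows in all, and 2183 of them lie on an sgNC region. A word of the HNF4 half-site pair, CAAAGTCCA on either strand, stood in 0.356% of all windows, in 1.60% of windows on sgNC regions, in 3.90% of the 359 windows on sgNC regions that every induced list also held, and in 0.526% of the 190 windows on sgNC regions that no induced list held. The looser word CAAAGNNCA, which includes the first, stood in 4.63%, 7.70%, 12.0% and 5.79% of the same windows. Windows on regions shared by all lists thus held either word more often than windows on regions of sgNC alone, and windows without any peak held them in 0.141% and 4.10%. The GC content of these sets was 60.9%, 65.0%, 63.6%, 63.7% and, without a peak, 59.3%. A match is a run of letters and not a measured site. The stricter word stood in 14 of the 359 windows and in 1 of the 190. Only 11.0% of the regions of all 8 induced lists and 10.6% of those of none lay within 1 kb of a gene end. Regions held by all lists were also stronger in sgNC, and the words were not compared at equal strength.

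The sequences below are the 250 bases before the start, 5′ to 3′ on the gene's strand, with any match to CAAAGNNCA or its reverse complement in capitals; they were chosen after their values were seen, as the windows with a match among the strongest of each kind and both windows of HNF4A itself. CIDEB (chr14:24307978-24308227, minus strand), a lipid droplet protein of liver and gut, EPS8L3 (chr1:109763924-109764173, minus strand), a relative of the actin regulator EPS8, and MAP3K11 (chr11:65614222-65614471, minus strand), a kinase of the JNK pathway, lie on regions held by all 10 lists. RGS12 (chr4:3384906-3385155, plus strand), a regulator of G protein signalling, and the 2 HNF4A windows (chr20:44355449-44355698 and chr20:44400989-44401238, plus strand) lie on regions held by both sgNC lists and no induced list.
CIDEB: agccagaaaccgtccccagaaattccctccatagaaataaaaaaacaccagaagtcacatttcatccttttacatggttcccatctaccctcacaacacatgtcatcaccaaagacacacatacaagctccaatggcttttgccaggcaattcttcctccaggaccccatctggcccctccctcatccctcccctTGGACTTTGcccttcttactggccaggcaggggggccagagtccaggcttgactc
EPS8L3: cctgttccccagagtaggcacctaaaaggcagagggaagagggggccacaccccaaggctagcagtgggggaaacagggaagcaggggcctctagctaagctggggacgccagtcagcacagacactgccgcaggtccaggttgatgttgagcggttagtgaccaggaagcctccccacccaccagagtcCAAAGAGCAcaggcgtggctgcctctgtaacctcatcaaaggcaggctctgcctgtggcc
MAP3K11: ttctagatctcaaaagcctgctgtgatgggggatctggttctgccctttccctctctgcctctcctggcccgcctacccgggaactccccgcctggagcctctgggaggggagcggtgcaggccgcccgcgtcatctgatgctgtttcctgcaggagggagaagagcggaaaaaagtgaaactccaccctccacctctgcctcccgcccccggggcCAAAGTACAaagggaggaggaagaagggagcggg
RGS12: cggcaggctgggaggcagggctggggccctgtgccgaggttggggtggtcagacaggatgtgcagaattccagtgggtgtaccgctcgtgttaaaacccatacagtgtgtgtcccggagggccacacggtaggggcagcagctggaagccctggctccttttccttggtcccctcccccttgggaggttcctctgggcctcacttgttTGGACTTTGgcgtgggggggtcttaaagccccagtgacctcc
HNF4A, first start: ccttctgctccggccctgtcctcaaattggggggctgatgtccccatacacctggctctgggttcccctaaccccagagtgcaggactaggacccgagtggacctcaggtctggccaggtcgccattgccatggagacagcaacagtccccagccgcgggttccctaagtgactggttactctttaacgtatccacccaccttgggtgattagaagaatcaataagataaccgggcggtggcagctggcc
HNF4A, second start: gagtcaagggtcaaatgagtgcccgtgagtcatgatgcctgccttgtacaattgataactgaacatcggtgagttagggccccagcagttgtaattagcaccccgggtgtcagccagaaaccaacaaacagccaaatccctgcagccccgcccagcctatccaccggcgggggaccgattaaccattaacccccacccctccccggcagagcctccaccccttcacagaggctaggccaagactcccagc
CIDEB and RGS12 hold the stricter word, and neither HNF4A window holds either word. Other strong windows held neither word in these bases. They were SLC7A7, ABAT and SEMA3B on regions of all 10 lists, and LGALS2, FAM78B, RAB34 and SLC16A4 on regions of no induced list. RGS12 was the only 1 of the 190 windows on regions of no induced list with the stricter word.

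The CIDEB region (chr14:24307632-24308493) was at percentiles 99.1 and 99.5 in the sgNC lists, 98.8 and 97.8 in Panc10.05 P1-α2, 94.7 and 89.3 in Panc10.05 P2-α8, 99.6 and 97.5 in BxPC3 P1-α2, and 97.2 and 92.4 in BxPC3 P2-α8. It was thus among the strongest peaks in each of the 10 lists. The RGS12 region (chr4:3384514-3385751) was at 93.5 and 98.7 in the sgNC lists and had no peak in the 8 induced lists, although its window holds the same word. The region at the first HNF4A start (chr20:44354854-44355943) was at 91.0 and 91.5 in the sgNC lists, and that at the second (chr20:44400731-44401585) at 43.0 and 14.5. Neither had a peak in an induced list, while other sites within 50 kb of HNF4A had 1 to 8 peaks in every induced list. In the CRISPRi lists of AsPC1, the region at the first start was at 86.0 and 82.4 in sgP1 and had no peak in sgP2. The region at the second start had no peak in either sgP1 list and, in sgP2, a peak at percentile 6.09 in replicate 2 alone.

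Most sgNC regions were also bound somewhere in the induced lines. Of the 13643 regions, 10992 (80.6%) were held by at least 1 induced list, 3093 (22.7%) by all 8, and 2651 (19.4%) by none. Between these ends, 863 regions were held by 1 list, 916 by 2, 927 by 3, 1404 by 4, 1063 by 5, 1418 by 6 and 1308 by 7. The distribution was therefore fullest at its ends, as the plot of regions by number of induced lists shows. Without sgNC replicate 2, the subject becomes the 23952 regions of replicate 1, of which 14.9% were held by all 8 lists and 31.3% by none. With every list cut to its 12681 strongest peaks by fold, the length of the shortest list, 13.2% were held by all 8 and 32.1% by none. A common minimum −log10 q of 8 in all 10 lists moved the shares the other way, to 27.8% in all 8 and 14.8% in none.

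**Figure D1:**
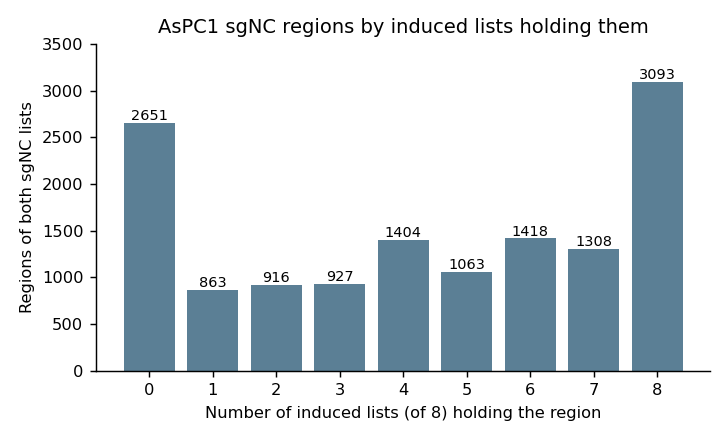
Regions of both AsPC1 sgNC lists (vertical axis, number of regions) by how many of the 8 induced Panc10.05 and BxPC3 lists held them (horizontal axis). The bars at 0 (2651 regions) and at 8 (3093 regions) are the tallest of the 9.

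By line and isoform, the share of sgNC regions that a list held was 59.7% and 64.5% in Panc10.05 P1-α2 (62.1% ± 3.34, SD, n = 2), 60.2% and 57.2% in Panc10.05 P2-α8 (58.7% ± 2.11, SD, n = 2), 63.7% and 54.7% in BxPC3 P1-α2 (59.2% ± 6.31, SD, n = 2), and 36% and 35.1% in BxPC3 P2-α8 (35.5% ± 0.622, SD, n = 2). BxPC3 P2-α8 stood below the other 3 groups with no overlap, and its lists of 12681 and 14666 peaks were the shortest. P1-α2 lists held 13.5 percentage points more of the regions than P2-α8 lists of the same line on average (exact permutation test, two-sided p = 0.111, Benjamini-Hochberg adjusted over 4 tests 0.148, smallest possible 0.0556). Panc10.05 lists held 13.1 percentage points more than BxPC3 lists (60.4% ± 3.00 against 47.4% ± 14.2, SD, n = 4 each; exact permutation test, two-sided p = 0.171, adjusted 0.171). Neither difference passed 0.05.

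List length was also cut to a common value. When all 10 lists were cut to 12681 peaks, the sgNC regions were redefined from the cut lists, and the induced lists held 48.2% and 43.0% of them in Panc10.05 P1-α2, 33.6% and 33.9% in Panc10.05 P2-α8, 37.8% and 32.3% in BxPC3 P1-α2, and 43.3% and 36.9% in BxPC3 P2-α8. At this length Panc10.05 P1-α2 had the highest mean (45.6% ± 3.63, SD, n = 2), and BxPC3 P2-α8 was no longer the lowest. The isoform difference was 3.41 percentage points (exact permutation p of 0.500) and the line difference 2.14 (exact permutation p of 0.629). Within Panc10.05 the P1-α2 lists exceeded the P2-α8 lists by 3.36 percentage points in full lists and by 11.8 at equal length. Within BxPC3 the same difference was 23.7 in full lists and -5.02 at equal length, a change of direction under a setting that cuts the induced lists and also redefines the sgNC regions. The difference between the lines in the isoform contrast was 20.3 points in full lists (exact permutation p of 0.278) and -16.9 at equal length (exact permutation p of 0.111). With a −log10 q of at least 8 in all 10 lists instead, the BxPC3 P2-α8 lists were the lowest, at 43.1% and 41.3%. The isoform difference was then 14.7 percentage points (exact permutation p of 0.0556, the smallest possible).

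**Figure D2:**
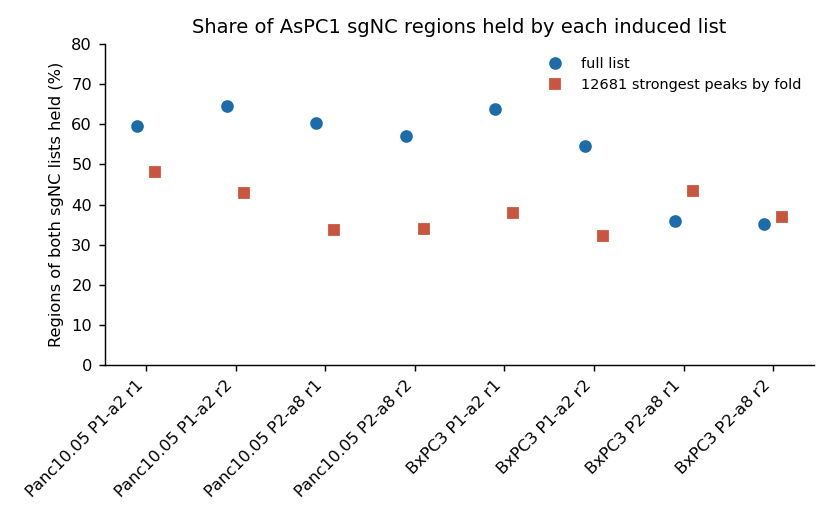
Share of the regions of both AsPC1 sgNC lists (vertical axis, %) held by each of the 8 induced lists (horizontal axis; r1 and r2 are replicates 1 and 2), for full lists (circles) and for lists cut to 12681 peaks by fold (squares). Full BxPC3 P2-α8 lists lie at 36% and 35.1% below all others, while at equal length the 8 lists lie between 32.3% and 48.2%.

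Combinations of lists showed more regions shared by both lines than kept to 1 line. At least 1 Panc10.05 and at least 1 BxPC3 list held 7908 sgNC regions (58.0%), while 1845 (13.5%) were held in Panc10.05 only and 1239 (9.08%) in BxPC3 only. All 4 Panc10.05 lists and no BxPC3 list held 702 regions (5.15%), and all 4 BxPC3 lists and no Panc10.05 list held 212 (1.55%). By isoform, 1436 regions (10.5%) were held by P1-α2 lists only and 337 (2.47%) by P2-α8 lists only. The strict forms were rare: 98 regions (0.718%) were in all 4 P1-α2 lists and no P2-α8 list, and 0 regions were in all 4 P2-α8 lists and no P1-α2 list. The 2 short BxPC3 P2-α8 lists bear on these last counts.

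The same overlap was counted from the induced side. Of the 5627 regions in all 8 induced lists, 3093 (55.0%) were in both sgNC lists, 522 in 1 of them and 2012 (35.8%) in neither. Of the regions in both lists of a group, 34.3% of 22646 for Panc10.05 P1-α2, 25.0% of 29405 for Panc10.05 P2-α8, 24.7% of 28676 for BxPC3 P1-α2 and 42.7% of 8958 for BxPC3 P2-α8 were sgNC regions. The shortest lists thus had the largest share. Among the strongest 10% of the peaks of each induced list, 37.0% to 61.2% lay in sgNC regions.

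Regions that more induced lists held were stronger in the sgNC lists. The median percentile of the regions that no induced list held was 57.3 in sgNC replicate 1 and 37.2 in replicate 2, and that of the regions held by all 8 was 87.2 and 79.0. The medians went up at each added list in both replicates, as the plot of percentiles by number of induced lists shows, while the quartiles of neighbouring classes overlapped. When the regions were ranked into 10 equal classes by their mean sgNC percentile, 6.30% of the weakest class were in all 8 induced lists and 36.5% in none. In the strongest class 64.4% (879 regions) were in all 8 and 3.66% (50 regions) in none. The mean number of induced lists went from 2.61 in the weakest class to 6.83 in the strongest. The gap between the medians of the regions in all 8 and in none was 37.6 percentile points for the mean of both replicates. These are descriptions, since regions of 1 library are not replicates.

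**Figure D3:**
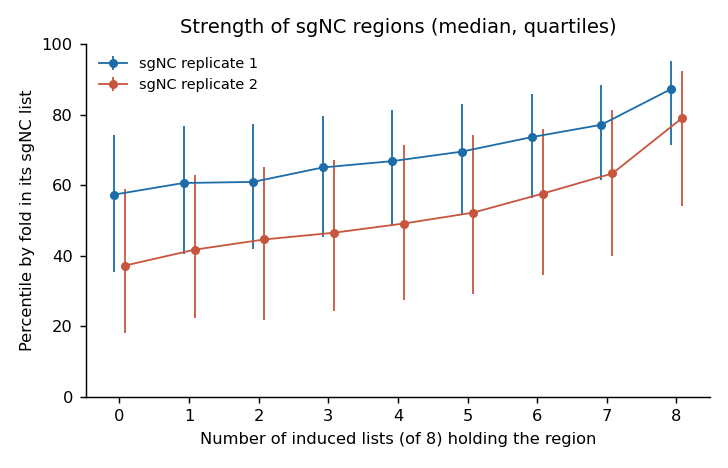
Percentile by fold enrichment in each AsPC1 sgNC list (vertical axis; 100 is the strongest) of the regions held by 0 to 8 induced lists (horizontal axis). Points are medians and bars run from the first to the third quartile over regions; the medians climb from 57.3 to 87.2 in replicate 1 and from 37.2 to 79.0 in replicate 2.

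Among the regions held by all 10 lists, the 10 with the highest sgNC percentiles are each named here by the nearest protein-coding gene, of varied function. Some of these genes were far off: JUN at 244 kb, REEP3 at 114 kb and NRIP1 at 75.1 kb. Whether a named gene is a target of its region was not tested. The region in NDST1, an enzyme of heparan sulfate synthesis (chr5:150540657-150543748), was at percentiles 100.0 and 100.0 in sgNC and 99.5 to 100.0 in the induced lists. That near PAOX, a polyamine oxidase (chr10:133377976-133379547), was at 100.0 in both sgNC lists, 99.8 to 100.0 in 6 induced lists, and 93.8 and 93.0 in Panc10.05 P2-α8. The region in TCF7L1, a transcription factor of the Wnt pathway (chr2:85306478-85307962), was at 100.0 in both sgNC lists and ranged from 85.0 to 99.9 in the induced lists, again lowest in Panc10.05 P2-α8. The other 7 of these 10 lay nearest to ZFP62, JUN (a subunit of AP-1), NSMCE1 (a subunit of the SMC5/6 complex), REEP3, NRIP1 (a corepressor of nuclear receptors), SIRPA (the receptor of CD47) and LENG8. Their lowest induced percentile was 85.5, near NSMCE1.

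Regions bound strongly in sgNC cells and called in no induced list were fewer. The region nearest to TGIF2LX, a homeobox gene (chrX:90457139-90457881), was at 99.3 and 99.0 in sgNC, 96.4 and 97.5 in sgP1, and 94.4 and 96.0 in sgP2. That in PTGDR2, a receptor of prostaglandin D2 (chr11:60851852-60852952), was at 97.8 and 99.6 in sgNC and had peaks in all 4 CRISPRi lists, at 95.2 to 99.8. The region in SBNO2 (chr19:1135495-1136661) was at 98.4 and 97.8 in sgNC, 84.4 and 81.9 in sgP1, and 95.8 and 93.7 in sgP2. These 3 regions were called in each of the 6 pan-HNF4α libraries of AsPC1 and in none of the 8 induced libraries. The others of the 10 strongest lay nearest to TTLL2, AOAH (an enzyme that inactivates bacterial lipopolysaccharide), EFNB2 (an ephrin ligand), PALM, TMEM132C, SOWAHA and RGS12, and each of them too was called in both sgP1 and both sgP2 lists. The regions named by TGIF2LX, EFNB2 and TMEM132C lay 535, 306 and 240 kb from these genes.

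Some strong sgNC regions were split by line. The region nearest to ID2, an inhibitor of basic helix-loop-helix factors (chr2:8609224-8609989), was at 99.2 and 99.8 in sgNC and at 94.3 to 98.5 in the 4 Panc10.05 lists, with no peak in BxPC3. RIPK4, a kinase of epithelial differentiation, was the nearest gene of 2 such regions, and LHX1, a LIM homeobox factor, and GALNT9, an enzyme of O-glycosylation, of 1 each. In the opposite direction, the region in CDH1, the gene of E-cadherin (chr16:68792253-68793505), was at 98.9 and 98.1 in sgNC, 80.7 and 74.4 in BxPC3 P1-α2, and 87.8 and 64.4 in BxPC3 P2-α8, with no peak in Panc10.05. The region in GET1 (chr21:39385130-39386115), part of the receptor for tail-anchored proteins, was at 99.4 and 99.3 in sgNC and 92.6 to 99.8 in BxPC3. ZNF521, ADPRHL1 and APBA1 named the remaining 3 regions of this kind.

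The 5 strongest sgNC regions that all 4 P1-α2 lists and no P2-α8 list held were of middle strength where induced. The region in EYS (chr6:64815640-64816546) was at 97.6 and 94.4 in sgNC, 36 and 39.4 in Panc10.05 P1-α2, and 54.5 and 64.8 in BxPC3 P1-α2. That near DIAPH2, a formin (chrX:97628745-97629894), was at 97.7 and 93.7 in sgNC and 57.9 to 77.5 in the 4 P1-α2 lists. IGSF23, FAM124B and ROR2, a receptor of Wnt5a, named the other 3, with induced percentiles from 21.9 to 79.0. All 5 were called in both sgP1 lists, at percentiles from 82.3 to 96.2, and in both sgP2 lists.

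Regions of all 8 induced lists with no sgNC peak included some of the strongest of those lists. The region near APOA1, the main protein of high-density lipoprotein (chr11:116838398-116839588), was at 99.5 and 99.9 in Panc10.05 P1-α2, 99.7 and 99.6 in Panc10.05 P2-α8, 99.6 and 100.0 in BxPC3 P1-α2, and 96.7 and 98.8 in BxPC3 P2-α8. It had no peak in any of the 10 AsPC1 lists, of either antibody. The same held for the regions named by GLCE, another enzyme of heparan sulfate synthesis, GSAP, KCND2, a potassium channel, and LAP3, an aminopeptidase, with induced percentiles from 97.0 to 100.0. Of the 15 promoter windows with a peak in all 8 induced lists and neither sgNC list, 46.7% held CAAAGNNCA, and their GC content was 52.4%.

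Order of strength within the 3093 regions common to all 10 lists differed more between AsPC1 and the induced lines than between replicates. Spearman's rho, given as a description over regions that share libraries, was 0.856 between the sgNC replicates and 0.517 to 0.800 between replicates of an induced group. Between sgNC and induced lists it was 0.171 to 0.399, with means of 0.345 for Panc10.05 P1-α2, 0.186 for Panc10.05 P2-α8, 0.286 for BxPC3 P1-α2 and 0.310 for BxPC3 P2-α8. Lists of different induced lines had a mean of 0.401. The sgNC order was thus closest to Panc10.05 P1-α2 and farthest from Panc10.05 P2-α8 by these means, and the 4 values of those 2 groups did not overlap.

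Since the lists differ in length, single regions were compared by their rank among the 3093. Both sgNC ranks lay above all 8 induced ranks in 378 regions (12.2%) and below all 8 in 349 (11.3%), which are shares over all common regions. The region in EPS8L3 whose promoter is printed above had rank percentiles of 96.9 and 96.3 in sgNC and 2.28 to 41.1 in the induced lists. That in PDXDC1 (chr16:14979359-14980916) had 90.7 and 95 in sgNC and 0.129 to 51.2 in the induced lists. GPRC5A, an orphan receptor, TANK, an adaptor that binds TRAF proteins, and BCL3, a member of the IκB family, named the other 3 with the largest positive differences. In the opposite direction, the region near FBXO32, a muscle ubiquitin ligase subunit, had 13.5 and 14.0 in sgNC and 89.9 to 98.8 in the induced lists. MCF2L2, FBXL13, GADD45G, a stress-response gene, and KIAA2013 named the rest, with sgNC rank percentiles from 0.566 to 21.5. These regions were chosen for the difference, so it is a description.

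The genes of 8 lists, 112 in all, were then searched for sgNC regions within 50 kb of their span. All 112 were found in the gene table. An sgNC region lay near 76 (67.9%), against 57.5% of all protein-coding genes. One held by all 8 induced lists lay near 36 (32.1%, against 23.1% of all genes), and one held by none lay near 31 (27.7%, against 17.9%). For 23 of the 112 neither sgNC list had a peak there. The shares of each list below are to be read beside those of all genes, 57.5%, 23.1% and 17.9%, and some lay near them.

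Among HNF4A partners and factors of gut and liver identity, 8 of 14 genes (57.1%) had an sgNC region. There were 3 (21.4%) with one in all 8 induced lists and 6 (42.9%) with one in none. GATA6, a marker of the classical subtype of pancreatic cancer, had a region at 98.0 and 94.1 in sgNC (chr18:22222841-22224250) that all 8 induced lists held, at 22.3 to 96.7. The lowest of these were the BxPC3 P2-α8 lists, at 25.8 and 22.3. CDX2, the homeobox factor of intestinal identity, had 3 sgNC regions, of which 2 were in no induced list, and NR5A2, a nuclear receptor of the pancreas and liver, had 2, both in none. HNF4A itself, described above, had 2 of the same kind. At other sites within 50 kb, all 8 induced lists had a peak near CDX2 and 6 had one near NR5A2. FOXA3 had a peak in sgNC replicate 2 alone and in every induced list.

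Among classical pancreatic cancer and gastric genes, 11 of 15 (73.3%) had an sgNC region, 2 (13.3%) had one in all 8 induced lists and 4 (26.7%) had one in none. The trefoil factor genes TFF1, TFF2 and TFF3, which encode mucosal repair peptides, share 1 sgNC region (chr21:42351126-42351637), at 51.2 and 40.8, which no induced list held. Among the 8 induced lists, BxPC3 P1-α2 replicate 1 alone had a peak within 50 kb of these genes. The only other gene of this list with a region in none was MUC5AC, so the 4 genes are not 4 separate cases. CTSE, an aspartic protease of gastric epithelium, had 3 sgNC regions, and the strongest (chr1:206048407-206049177) was at 97.7 and 94.8 in sgNC, 53.7 and 18.2 in Panc10.05 P1-α2 and 61.8 in BxPC3 P1-α2 replicate 1, with no peak in a P2-α8 list. Another of its sgNC regions was held by all 8 induced lists, those of P2-α8 included. AGR2, a disulfide isomerase of mucin-secreting cells, had 2 sgNC regions, 1 of them in all 8 induced lists.

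Genes of the intestinal epithelium had an sgNC region in 12 of 16 cases, 6 with one in all 8 induced lists and 4 with one in none. VIL1, which encodes the brush border protein villin, had its strongest (chr2:218444362-218446553) at 99.1 and 98.2 in sgNC, 93.9 and 94.8 in Panc10.05 P1-α2, 97.7 and 91.0 in Panc10.05 P2-α8, 89.1 and 91.4 in BxPC3 P1-α2, and 66.3 and 56.2 in BxPC3 P2-α8. It was strong in all but the last group. CDH17, an intestinal cadherin, had 9 sgNC regions, of which 2 were in all 8 induced lists and 6 in none. LGALS4, an intestinal galectin, had 6 sgNC regions, none of them in all 8 and 4 in none. Its strongest (chr19:38812779-38813618), at 95.4 and 93.8 in sgNC, had no induced peak, and was at 86.2 and 90.5 in sgP1 and 78.4 and 93.0 in sgP2. All 8 induced lists had a peak elsewhere within 50 kb of LGALS4. SI, the gene of sucrase-isomaltase, had no peak within 50 kb in any of the 10 lists.

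Liver plasma protein and lipoprotein genes had the smallest share of the 8 lists, with an sgNC region near 6 of 15 (40.0%, against 57.5% of all genes). F7 and F10 share 1 of these regions (chr13:113122521-113123239). APOA1, APOA4 and APOC3, neighbours in a cluster of apolipoprotein genes, share the strongest of their sgNC regions (chr11:116808131-116809282), so these 6 genes are not 6 separate cases. It was at 54.2 and 13.7 in sgNC, 97.4 and 98.1 in Panc10.05 P1-α2, 92.3 and 98.7 in Panc10.05 P2-α8, 97.4 and 90.1 in BxPC3 P1-α2, and 41.9 and 94.3 in BxPC3 P2-α8. The sgNC peaks were of middle and low strength in their lists, and 7 of the 8 induced peaks were at 90.1 or above in theirs. TTR, which carries thyroxine and retinol, and TF, the gene of transferrin, had peaks in all 8 induced lists and in neither sgNC list.

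Genes of glucose and fatty acid metabolism had an sgNC region in 11 of 13 cases (84.6%) and one in all 8 induced lists in 8 (61.5%). ACSL5, an acyl-CoA synthetase, had 7 sgNC regions, and the strongest (chr10:112379327-112380598) was at 98.9 and 93.0 in sgNC and at 85.9 to 99.9 in the induced lists. CD36, a fatty acid transporter, had 1 (chr7:80722486-80723278), at 97.2 and 92.4 in sgNC and 81.4 to 99.3 in the induced lists. PCK1, the rate-limiting enzyme of gluconeogenesis, had 1 weaker region (chr20:57560399-57561214), at 44.7 and 11.9 in sgNC and 12.5 to 96.5 in the induced lists. PPARGC1A, a coactivator of gluconeogenic genes, had peaks in all 8 induced lists and in neither sgNC list.

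Bile acid and nuclear receptor genes had an sgNC region in 11 of 14 cases (78.6%), 6 (42.9%) with one in all 8 induced lists and 4 (28.6%) with one in none. NR1I2, the pregnane X receptor, had its strongest (chr3:119794787-119796318) at 97.4 and 93.2 in sgNC and 35.2 to 93.6 in the induced lists. NR0B2, the bile acid responsive corepressor SHP, had its strongest (chr1:26913954-26914801) at 77.5 and 83.1 in sgNC and at 15.3 and 48.9 in BxPC3 P1-α2, and no other induced list held this region. Its second sgNC region was held by 6 induced lists, and every induced list had a peak within 50 kb of the gene. RXRA, a heterodimer partner of many nuclear receptors, had 6 sgNC regions, and the strongest (chr9:134382405-134383351), at 91.0 and 92.2, was in no induced list. It was the only one of the 6 that no induced list held, another was held by 7, and every induced list had peaks within 50 kb of RXRA. CYP7A1, the rate-limiting enzyme of bile acid synthesis, had no sgNC peak and peaks in 2 induced lists.

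Basal and mesenchymal genes had an sgNC region in 7 of 13 cases (53.8%), with 3 in all 8 induced lists and 3 in none (23.1% each). These shares lay near those of all genes, 57.5%, 23.1% and 17.9%. Circadian clock genes had one in 10 of 12 cases (83.3%), with 5 and 5 (41.7% each). S100A2, a calcium-binding protein of basal cells, had its strongest (chr1:153608242-153609830) at 97.0 and 93.3 in sgNC and 62.1 to 99.1 in the induced lists. KRT5 and KRT6A, keratins of basal epithelium, had peaks in all 8 induced lists and in neither sgNC list. BMAL1, a core activator of the clock, had its strongest (chr11:13332626-13334279) at 97.0 and 95.4 in sgNC and 31.8 to 92.2 in the induced lists. CLOCK, its partner, had 1 region (chr4:55438069-55438700), at 72.5 and 26.3 in sgNC and in no induced list. Elsewhere within 50 kb of CLOCK, 4 induced lists had a peak.

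Distance to genes separated the sgNC lists from the induced lists. Of the summits, those at most 1 kb from the start or end of a protein-coding gene (a gene end) made up 18.8% and 16.2% of the sgNC peaks, 10.0%, 11.1%, 13.0% and 10.7% of the Panc10.05 peaks, and 6.31%, 5.80%, 6.15% and 5.33% of the BxPC3 peaks. The groups did not overlap. The mean was 8.95 percentage points higher in sgNC (17.5% ± 1.86, SD, n = 2) than in the induced lists (8.55% ± 2.97, SD, n = 8). The exact permutation test gave a two-sided p = 0.0444, the smallest possible, and 0.0889 once adjusted (Benjamini-Hochberg, 4 tests), which misses 0.05. This test took the Panc10.05 and BxPC3 libraries as 1 group, though their means were 11.2% and 5.90%. It cannot separate induction from cell line. Summits over 100 kb from every such gene made up 9.54% and 9.53% of the sgNC peaks and 11.1% to 15.6% of the induced peaks, a difference of -4.13 percentage points (exact permutation test, two-sided p = 0.0444, adjusted 0.0889). At equal length the near-gene shares were 15.5% and 15.3% in sgNC, 8.53% ± 0.821 in Panc10.05 and 5.10% ± 0.727 in BxPC3 (SD, n = 4 each), so the order of the lines was the same. In the sgP1 and sgP2 lists of AsPC1, which belong to the same library name series as sgNC, the near-gene share was 16.9% to 18.1%.

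**Figure D4:**
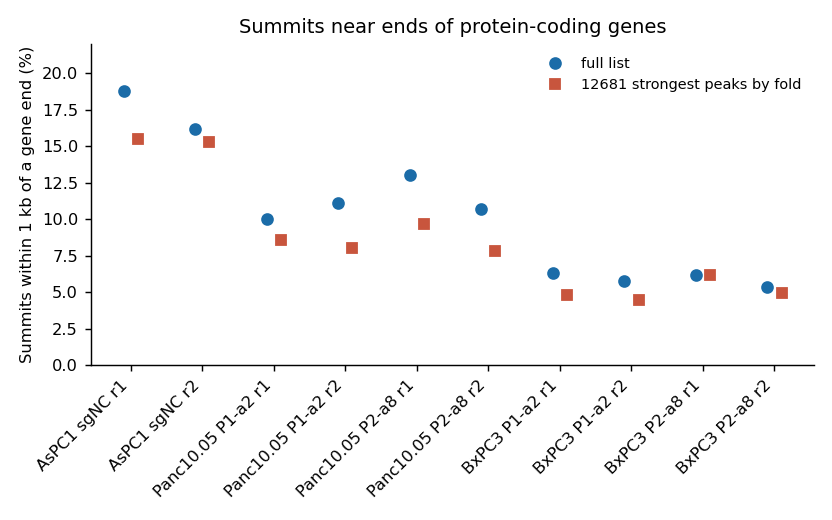
Share of peak summits at most 1 kb from a gene end (vertical axis, %) in each of the 10 lists (horizontal axis; r1 and r2 are replicates 1 and 2), for full lists (circles) and lists cut to 12681 peaks by fold (squares). Both sgNC lists (18.8% and 16.2%) lie above the Panc10.05 lists (10.0% to 13.0%), which lie above the BxPC3 lists (5.33% to 6.31%).

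Among the sgNC regions, nearness to genes was highest at middle sharing. Of the regions that no induced list held 10.6% lay within 1 kb of a gene end, of those that 5 lists held 24.2%, and of those that all 8 held 11.0%, against 16.3% of all sgNC regions. The 2 ends of the distribution were thus alike in this, though far apart in strength. The regions inside genes made up 53.6% where no list held them and 51.4% where all 8 did. The median distance to the nearest gene end was 23202 bp in the first class, 10383 bp at 5 lists and 17850 bp in the last.

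Other AsPC1 readouts, which took no part in the choice of the regions, also varied with sharing. The sgP1 lists held 66.2% and 55.9% of the regions that no induced list held, and 86.5% and 82.7% of those that all 8 held. The sgP2 lists held 53.0% and 63.7%, and 87.3% and 92.8%. Peaks of the antibody against P1 isoforms in sgP2 cells covered 13.3% and 9.66% of the first class and 59.7% and 55.1% of the last, and in sgNC cells 0.566% and 0.151%, and 14.5% and 6.43%. Shares were thus higher in the shared class in all 8 of these AsPC1 lists. The lists of the P1-isoform antibody were short, with 5200 and 3916 peaks in sgP2 cells and only 697 and 260 in sgNC cells. A missing peak in the sgNC lists of this antibody therefore shows little.

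Strength moves with this, since shared regions were the stronger ones. Averaged over the 10 classes of sgNC strength, a step chosen after the data were seen, the share of the regions of all 8 lists minus that of the regions of none was -2.54 and -1.10 percentage points in the sgP1 lists and 7.88 and 9.47 in the sgP2 lists. The share was higher for the shared regions in 9 of 10 classes in each sgP2 library and in 3 and 4 of 10 classes in the sgP1 libraries. The match in strength is coarse, since the weakest class spans percentiles up to 25.3 and nearly all regions of the strongest class were held by each of the 4 lists. The sgP2 value exceeded the sgP1 value by 10.5 points (exact permutation test, two-sided p = 0.333, which is the smallest for 2 against 2 libraries). For the P1-isoform antibody in sgP2 cells the averaged difference was 9.77 and 10.4 points, and in sgNC cells it was 3.76 and 1.97 points, higher in 5 and 4 of 10 classes.

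**Figure D5:**
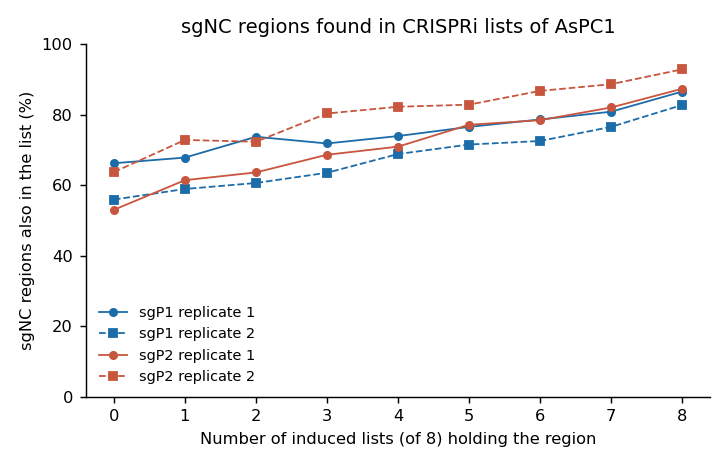
Share of AsPC1 sgNC regions (vertical axis, %) also held by each pan-HNF4α list of the CRISPRi genotypes sgP1 and sgP2 (lines; 2 replicates each), by the number of induced lists that held the region (horizontal axis). All 4 lines are higher at 8 lists (82.7% to 92.8%) than at 0 (53.0% to 66.2%), without allowance for the strength of the regions.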

How the data were processed

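The deposited files are peak lists in narrowPeak form, 1 per library, called per sample. The authors' fold enrichment (a ratio), −log10 p-value, −log10 q-value and integer score of each peak are given as deposited, and the score repeats the q-value. Per the submitters' processing notes, Bowtie2 2.2.9 and MACS2 2.2.7 were used and the builds hg38 and mm10 are named without their roles. Filters, controls and read depth are not given in the sources used here. The lists hold chromosomes 1 to 22, X and Y only, and 5.33% to 18.8% of summits lay within 1 kb of a gene end of GRCh38.p14, against 3.70% to 4.70% after a shift by 100 kb, so hg38 was taken as the build.

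Cell line, genotype and antibody labels gave the groups, and titles gave the replicate numbers. For BxPC3 P2-α8 the titles pair α8 with P1, and the genotype label was used. Peaks of 10 lists were merged at 1 bp with Python 3.11.15, numpy 2.4.6 and pandas 2.3.3. Genes came from RefSeq (20037 protein-coding, without strand), and the nearest gene to the middle of a region names it. The members and gene lists were chosen with earlier results of these data known. Named regions were those with the highest mean percentile of each kind (10 each of all 8 or no induced list, 5 of each other kind), or the 5 largest rank differences without overlap in each direction, ranked among regions of all 10 lists. Groups were compared over libraries by two-sided exact permutation tests, isoforms within line, with Benjamini-Hochberg adjustment over 4 tests. Alternatives were −log10 q minimums of 8 and 20, equal list length (by fold, or by −log10 p), either sgNC list, sgNC lists merged alone, reciprocal overlap of 50%, summits within 100 bp, other distances, each library left out, and a replicate block. Same-numbered libraries did not deviate together (correlations of -0.0273 to 0.0557 over 10 pairs of groups), so numbers were not taken as pairs, and 0 pairs of lists were identical. Counting of overlaps, tested on 5000 simulated sites and against bedtools 2.31.1, gave 0 differences. Figures were drawn with matplotlib 3.10.9. Without a genome sequence, motifs were read only in promoter windows. Some items that the rules select are not reported here.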

Additional observations from a re-analysis of the deposited data

How the results depend on the processing

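Of 160 alternative values, 30 (counts and values without a test) moved beyond their limit, and 0 of the results listed here changed direction. The isoform contrasts within each line and the difference between them are outside this tally. At equal length the BxPC3 contrast and that difference turned, and the Panc10.05 contrast did not. In 22 cases, all of them the near-gene and far differences, the unadjusted p was no longer below 0.05, a level that the adjusted p of 0.0889 misses already. The isoform and line differences kept their direction but were 3.41 and 2.14 at equal length by fold and 4.11 and 1.30 by −log10 p. They were 14.7 and 11.5 at a −log10 q of at least 8, and 17.4 and 11.3 at 20. By reciprocal overlap they were 15.4 and 14.6, and by summits within 100 bp 14.6 and 9.89. In these last settings the exact permutation p was 0.0556, the smallest possible, for the isoform difference and 0.143 to 0.314 for the line difference. The regions of both sgNC lists numbered 13643, 5147 at a −log10 q of at least 20 and 25047 for either sgNC list. The share held by all 8 induced lists (22.7%) was 27.8% at a −log10 q of at least 8, 32.0% at 20, 13.2% and 15.8% at equal length by fold and by −log10 p, 14.4% for either sgNC list, 9.96% by reciprocal overlap and 17.9% by summits within 100 bp. The share held by none (19.4%) was 14.8%, 11.1%, 32.1%, 34.1%, 32.0%, 24.0% and 21.6% in the same order. The percentile gap of 37.6 was 48.4 for either sgNC list and 28.9 by reciprocal overlap. With the replicate block, which the numbers' correlations do not support as a pairing, the near-gene difference of 8.95 and the far difference of -4.13 each had an exact permutation p of 0.0800, the isoform difference of 13.5 one of 0.250 and the line difference of 13.1 one of 0.250. Leaving out each library gave 10.2 to 15.8 for the isoform difference, 8.96 (without BxPC3 P2-α8 replicate 2) to 18.5 for the line difference, 7.63 to 10.3 for the near-gene difference and -4.50 to -3.85 for the far difference. The last 2 then had exact permutation p-values of 0.0556 to 0.222, since fewer libraries allow no smaller ones. It gave 13643 to 23952 regions, 14.9% to 26.7% in all 8, 19.5% to 31.3% in none, a gap of 35.1 to 51.5, and 75 to 88 of the listed genes with an sgNC region; the extremes 23952, 14.9%, 31.3%, 51.5 and 88 are those without sgNC replicate 2. The unequal calling thresholds and the unknown depth limit what a missing peak shows. The causes of these changes were not tested.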

Other observations

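Some genes were the nearest to several of the sgNC regions that no induced list held, and no expected count was computed. Of all sgNC regions, 19.4% were in no induced list and 22.7% in all 8. TOX3, an HMG-box factor, was the nearest gene of 13 sgNC regions, of which 10 were in no induced list and 0 in all 8. For HRH4, a histamine receptor, 8 of 8 regions were in none, for ZNF521 9 of 11, for KLF6, a zinc finger factor, 9 of 16, for MSX2, a homeobox factor, 7 of 13, and for BMP7, a ligand of the TGF-β family, 7 of 10. At the other end, LHFPL2 had 6 of 10 regions in all 8 induced lists, EEPD1 6 of 8, NRIP1 5 of 6 and JUN 5 of 13, and LHFPL2, NRIP1 and JUN had 0 in none. The sgNC regions had 6816 nearest genes in all. The regions in all 8 had 2382 and those in none 1942, with 595 genes in both, which is a share of 25.0% of the former and 30.6% of the latter. TNS3, with 22 regions, and RAD51B, with 14, had 5 in all 8 and, in order, 8 and 6 in none. These genes were picked for these counts.

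By chromosome, the share of sgNC regions in no induced list ran from 12.3% of 512 regions on chromosome 9 to 25.1% of 235 on chromosome 18, leaving out Y with 4 regions. It was 19.4% of all sgNC regions. Of the 59 regions in none on chromosome 18, 9 were those of ZNF521 named above, so the 2 observations are not separate. Chromosome X had 24.4% of 291 regions in none and 11.0% in all 8, the lowest share in all 8 apart from Y.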
